A study of Homo sapiens with 3 samples.

Results

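The genes of cholesterol and fatty acid synthesis were described in 3 RNA-seq libraries of WT 22Rv1 cells. The list holds 42 genes, chosen by symbol from sterol synthesis, fatty acid synthesis, their SREBP regulators and lipid uptake and handling, out of 27024 counted genes. All 42 had a row in the deposited tables. The list does not cover every step of either pathway.

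The 22Rv1 line was grown out of a human prostate carcinoma and is in wide use. The WT cells carried no edit of the risk enhancer that the study removed or altered in other 22Rv1 cells, and were grown in RPMI1640 with fetal bovine serum and antibiotics, with no drug named in the labels. Serum brings cholesterol and fatty acids to cells, and its lipid content was not given. The libraries of the edited cells were not analysed here, so every value below describes unedited cells, and no treated or edited group was compared. The study calls the WT samples control clones, biological replicates and different lines in different places, so p-values here measure only the spread between these samples, which may be spread between clones, between cultures or technical.

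Cells make cholesterol from acetyl-CoA through mevalonate, farnesyl diphosphate, squalene and lanosterol. Fatty acids start from the same acetyl-CoA, which acetyl-CoA carboxylase turns into malonyl-CoA for fatty acid synthase. The transcription factors SREBP1 and SREBP2 raise both sets of genes when sterols are low: SCAP carries them out of the endoplasmic reticulum, INSIG proteins hold SCAP back when sterols are plentiful, and in the nucleus SREBP binds sterol regulatory elements and E-boxes beside NF-Y at CCAAT boxes and Sp1 at GC boxes. In prostate cancer these pathways are known to be raised by the androgen receptor, and FASN and SCD have been studied as drug targets.

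Promoter sequence could be looked up for most of the listed genes, and 6 promoters are printed first. RefSeq promoter windows on GRCh38.p14, running from 250 bases before to 50 bases after an annotated start, were found for 37 of the 42 genes (49 windows). No window was matched for ACAT2, FASN, FDFT1, SCARB1 and SQLE. The 250 bases before the start are shown 5′ to 3′ on the strand of the gene. Capitals mark the core of the sterol regulatory element (TCACNCCAC), the E-box (CACGTG) and the CCAAT box, each searched on both strands, so that ATTGG is a CCAAT box on the other strand. SREBF2 (chr22:41832855-41833104, plus strand) is shown for its sterol element, INSIG1 (chr7:155297628-155297877, plus strand) for its E-box, FDPS (chr1:155308616-155308865, plus strand), MSMO1 (chr4:165327419-165327668, plus strand) and SCD (chr10:100346983-100347232, plus strand) for several CCAAT boxes, and CYP51A1 (chr7:92134478-92134727, minus strand) as a well expressed gene of the pathway whose window held none of these letters.
SREBF2: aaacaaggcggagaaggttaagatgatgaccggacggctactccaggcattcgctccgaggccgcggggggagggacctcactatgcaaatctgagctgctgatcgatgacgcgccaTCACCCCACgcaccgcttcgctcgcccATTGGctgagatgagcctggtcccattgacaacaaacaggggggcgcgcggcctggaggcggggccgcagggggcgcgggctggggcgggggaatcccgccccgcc
INSIG1: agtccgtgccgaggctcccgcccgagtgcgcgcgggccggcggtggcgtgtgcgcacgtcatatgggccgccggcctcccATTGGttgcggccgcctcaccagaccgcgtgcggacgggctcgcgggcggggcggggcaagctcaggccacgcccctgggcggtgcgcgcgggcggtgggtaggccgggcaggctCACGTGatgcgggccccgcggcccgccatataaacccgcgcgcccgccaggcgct
FDPS: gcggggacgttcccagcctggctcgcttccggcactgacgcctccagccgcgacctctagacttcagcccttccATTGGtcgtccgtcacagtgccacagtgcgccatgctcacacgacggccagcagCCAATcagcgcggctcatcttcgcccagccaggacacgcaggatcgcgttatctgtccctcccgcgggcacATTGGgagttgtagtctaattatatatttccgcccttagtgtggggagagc
MSMO1: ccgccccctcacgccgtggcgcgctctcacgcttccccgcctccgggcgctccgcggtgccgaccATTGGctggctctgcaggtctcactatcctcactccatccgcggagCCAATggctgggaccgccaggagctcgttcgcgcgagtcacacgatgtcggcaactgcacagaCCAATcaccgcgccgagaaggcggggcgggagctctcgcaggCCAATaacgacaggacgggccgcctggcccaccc
SCD: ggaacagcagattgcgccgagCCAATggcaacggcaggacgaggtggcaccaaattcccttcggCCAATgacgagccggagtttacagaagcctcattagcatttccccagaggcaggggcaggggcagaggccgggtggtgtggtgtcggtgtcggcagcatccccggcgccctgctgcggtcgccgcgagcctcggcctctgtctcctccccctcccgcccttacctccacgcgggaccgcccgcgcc
CYP51A1: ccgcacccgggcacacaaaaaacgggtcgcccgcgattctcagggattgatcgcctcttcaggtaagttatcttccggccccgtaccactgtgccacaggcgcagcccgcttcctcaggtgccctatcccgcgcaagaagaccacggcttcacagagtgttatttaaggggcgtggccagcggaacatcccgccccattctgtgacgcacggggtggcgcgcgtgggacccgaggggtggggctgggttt

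In the SREBF2 promoter the sterol element lay 133 to 125 bases before the start and a CCAAT box 106 to 102 bases before it. A longer form of the element, which adds 1 base in front of the same letters, was found at the same place and so overlaps it. SREBF2 was the only listed gene with the core element among the 37 with a window (2.7%), beside 1.47% of 11575 genes that had a window and enough reads to be tested and 1.39% of all 27305 genes with a window. A gene was counted when any of its windows held the motif. A match is a description of letters, not of binding, and no match says only that these letters were not in this window.

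CCAAT boxes were found in 25 of the 37 genes (67.6%), beside 43.1% of the genes tested. They were found in 5 of the 6 mevalonate genes with a window and in 8 of the 9 genes from squalene to cholesterol. The share was 4 of 5 in fatty acid synthesis, 4 of 7 in desaturation and elongation and 2 of 5 among the SREBP regulators. It was 1 of 3 in sterol handling and 1 of 2 on the oxidation side, and no difference between these groups was tested. The MSMO1 window held 4 CCAAT boxes and the FDPS window 3. The E-box was found in 6 of the 37 genes (16.2%), namely ABCA1, ELOVL5, INSIG1, LSS, SC5D and SCAP, beside 12.4% of the genes tested. GC boxes (GGGCGG, not in capitals above) were found in 33 of the 37 (89.2%), beside 75.9% of the genes tested. These hits can overlap, and INSIG1 has a pair that shares 1 base. The plot of motif shares sets the listed genes beside both backgrounds.

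Levels below are the deposited values, which are reads divided by 1 size factor per library, called normalized counts. Where levels of different genes are compared, they were divided by the length of 1 canonical transcript in kilobases. A gene was called expressed at 1 CPM (its reads scaled to a library of fixed size) or more in all 3 libraries, which held for 41 of the 42 genes, beside 47.7% of all counted genes. Per kilobase, 35 of the 42 lay above the median of expressed genes (314.9), where the background is 50% by construction, and 16 of the 42 in the top 10%, from 1880.1 upward. All 42 genes together took 0.816% ± 0.0118 (SD, n = 3) of the reads. The labelled prostate origin was checked on its markers: HOXB13, FOLH1, TMPRSS2, KLK2 and KLK3 were all expressed, at means of 9956, 7477, 1343, 1241 and 341 normalized counts. Of the fibroblast markers COL1A1 and LUM were expressed at 261 and 161 normalized counts, while COL1A2 had 0 to 1 read, and COL3A1 and DCN were below 1 CPM in at least 1 library. None of the 6 blood and vessel markers with a row was expressed.

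**Figure D1:**
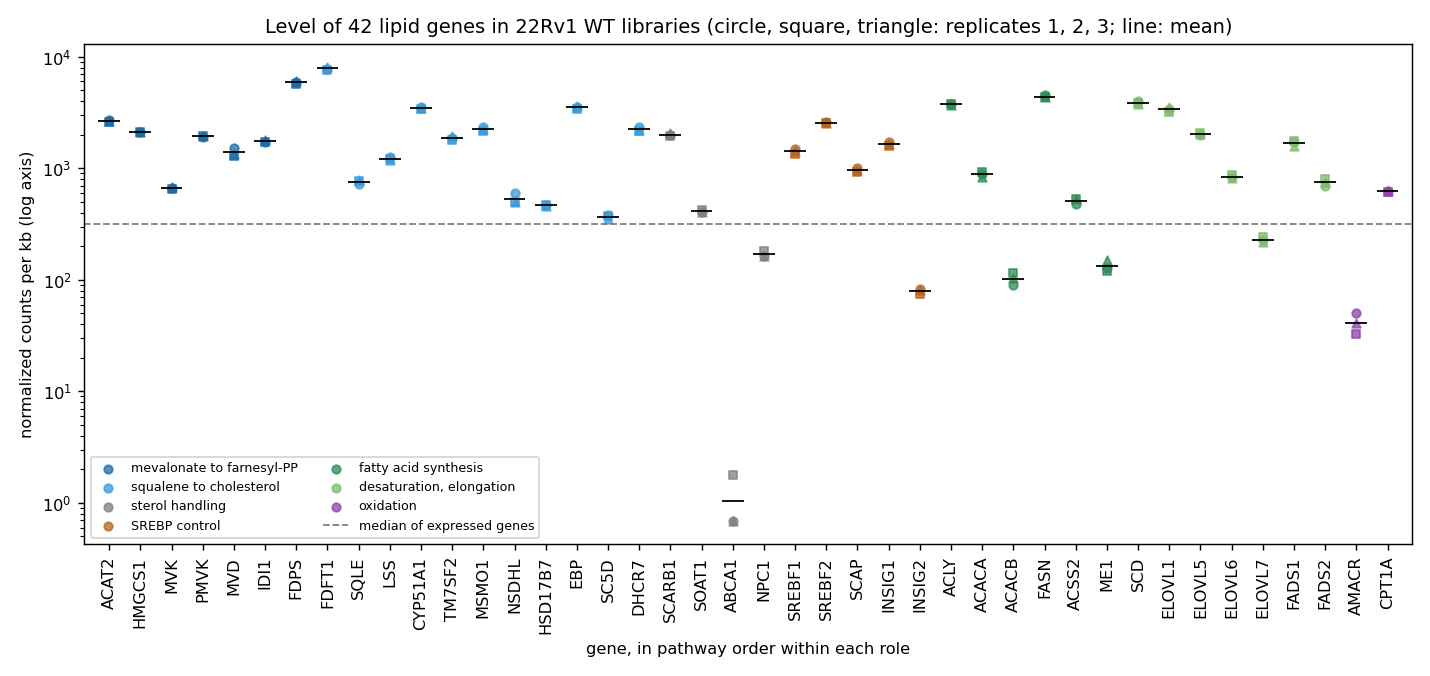
Normalized counts per kilobase (log axis) of the 42 genes in pathway order, with a circle, a square and a triangle for replicates 1, 2 and 3, a short line for the mean and a dashed line at the median of expressed genes (314.9). FDFT1 (7850.4) and FDPS (5879) stand highest, and ABCA1 (1.05) lies far below all others.

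The mevalonate genes were all 7 expressed above the median per kilobase. HMGCS1, which condenses acetyl-CoA and acetoacetyl-CoA, had 11277, 11339.7 and 11218 normalized counts in replicates 1 to 3. FDPS, which makes farnesyl diphosphate, had 8478, 8016 and 8497, and ACAT2, which makes acetoacetyl-CoA, had 4094, 3915 and 4052. HMGCS1 thus had a coefficient of variation (CV, the SD as a percent of the mean) of 0.54%, while replicate 2 was the lowest for FDPS and ACAT2. The isomerase IDI1 had 4739, 4662 and 4918. The kinases MVK and PMVK were close to each other in normalized counts, at 1890 ± 33.4 and 1933 ± 24.3 (SD, n = 3), but on the per-kilobase scale PMVK stood at 1929 and MVK at 667. MVD, the decarboxylase that yields isopentenyl diphosphate, varied most of the 7, with 2708, 2338 and 2428 and a CV of 7.75%. Replicate 1 was the high library there.

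From squalene to cholesterol all 11 genes were expressed above the median per kilobase, over a 21.3-fold range. FDFT1, squalene synthase, had 15899, 15475 and 16552 normalized counts and at 7850.4 ± 267 (SD, n = 3) per kilobase of the canonical transcript was the highest of the 42 genes. CYP51A1, the lanosterol demethylase, had 11137.5, 10628.9 and 10890.3. EBP, a sterol isomerase, stood beside it per kilobase, at 3516 against 3450.3, and their ranges over the libraries overlapped. MSMO1, a methylsterol oxidase, had 5239, 4839.7 and 5013, and DHCR7, the reductase that ends the route through dehydrocholesterol, had 6155, 5719.8 and 5839.9. Replicate 1 was highest and replicate 2 lowest for both, and their levels per kilobase (2259 and 2248) were not apart. LSS, which closes the ring of lanosterol, had 6128.5, 5869 and 5768. TM7SF2, a sterol reductase, had 2959.6, 2835 and 3074 and stood at 1873 per kilobase.

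SQLE, the epoxidase that is often named as a control point of the route, stood below its neighbours in the pathway. It had 2130.0, 2270.5 and 2336 normalized counts and 758 ± 35.5 per kilobase (SD, n = 3). In the same library SQLE had 0.573, 0.638 and 0.668 times the level of LSS per kilobase. The RNA of SQLE was thus below that of LSS, the next enzyme, in each library. Amounts of the enzymes were not measured. The lowest 4 of the 11 were NSDHL at 530.2, HSD17B7 at 464, SC5D at 368 and SQLE itself. NSDHL, which removes a carbon at the sterol ring, had 1091, 909.7 and 915, with replicate 1 above the other 2 by a max-to-min ratio of 1.199. HSD17B7, a sterol ketoreductase, had 709, 714 and 706 and was the steadiest of the 11 by its chi-square. Its level is uncertain, since HSD17B7P2, which has its own row, matches 67.1% of the transcript at 98.4% identity. SC5D, the sterol desaturase, had 2606, 2534.5 and 2424.

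The genes of sterol uptake, storage and export were spread widest. SCARB1, a receptor for high-density lipoprotein, had 6828, 6689 and 6989 normalized counts. SOAT1, which esterifies cholesterol for storage, had 2776, 2904 and 2747, and NPC1, which moves cholesterol out of late endosomes, had 776, 867 and 775.5. Both were highest in replicate 2. ABCA1, the pump that hands cholesterol to apolipoproteins, had only 9, 22 and 9 reads in the 3 libraries, or 7.1, 18.6 and 7.1 normalized counts. It was the 1 gene of 42 below the limit for expression. Per kilobase SCARB1 was 2939, 1099 and 3009 times ABCA1 in the 3 libraries. With the union of all exons as the length the mean ratio was 586 rather than 2349, and the few ABCA1 reads make it imprecise as well.

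Among the SREBP regulators, SREBF2, which encodes the factor best known for sterol genes, was above SREBF1, which encodes the factor best known for fatty acid genes. SREBF2 (chromosome 22, 42229109 to 42303310 on GRCh37) had 13641, 13249 and 13245 normalized counts. SREBF1 (chromosome 17, 17713713 to 17740316) had 7294, 6623 and 7048. Per kilobase the ratio of SREBF2 to SREBF1 was 1.75, 1.87 and 1.76, so SREBF2 was higher in each library. The 3 SREBF1 counts pool all its isoforms, whose split was not measured. SCAP, the escort of both factors, had 4233, 3903 and 4125.

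The INSIG genes, which encode the anchors of SCAP, were far apart in level. INSIG1, a known target of SREBP itself, had 4983, 4588 and 4793 normalized counts. INSIG2 had 295, 267 and 286. Per kilobase INSIG1 was 20.71, 21.08 and 20.54 times INSIG2, a ratio of 20.8 ± 0.276 (SD, n = 3). INSIG2 had only 373, 315 and 363 reads. It did not differ between libraries beyond sampling noise in the chi-square test (adjusted p = 0.517). Whether INSIG1 and INSIG2 vary together was not tested. SREBF2 hosts the microRNA gene MIR33A and SREBF1 hosts MIR33B on the same strand, and reads of either host cannot be assigned to the microRNAs.

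Fatty acid synthesis held the gene with the most reads of the 42. FASN, fatty acid synthase (chromosome 17, 80036214 to 80056170 on GRCh37), had 38151, 36962 and 36513 normalized counts and 4396 ± 100.04 per kilobase (SD, n = 3). ACLY, which cuts citrate into cytosolic acetyl-CoA, had 16210.5, 16072 and 15999.6. ACLY was among the steadiest genes, with a CV of 0.67%. ACSS2, which makes acetyl-CoA from acetate, had 1388, 1521 and 1516. Per kilobase ACLY was 7.35 ± 0.43 times ACSS2 (SD, n = 3), and 11.02 times when the union of all exons gave the length.

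The carboxylases were also far apart in level. ACACA, the cytosolic acetyl-CoA carboxylase of fatty acid synthesis, had 8960.1, 9247 and 8308 normalized counts. ACACB, the carboxylase at mitochondria that is known for holding back fatty acid import, had 850.1, 1068 and 964. ACACA was 9.87, 8.11 and 8.06 times ACACB per kilobase, and was above it in each library. ACACB overlaps UNG on the same strand, so reads of the shared stretch are uncertain. ME1, malic enzyme, a source of NADPH, had 427, 397 and 503 and was highest in replicate 3.

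Of the desaturases and elongases, SCD, which makes monounsaturated fatty acids (chromosome 10, 102106990 to 102124583 on GRCh37), had 20847, 20281 and 19757 normalized counts. At 3869 per kilobase SCD was not apart from ACLY (3749). ELOVL1, an elongase of very long chains, had 5029, 4723 and 5176 and was next after SCD in this group per kilobase, at 3394. ELOVL5, which acts on polyunsaturated chains, had 5531, 5708 and 5634.5, and ELOVL6, which takes palmitate to stearate, had 5496, 5699.5 and 5338.5. These 2 were highest in replicate 2. ELOVL7, an elongase of long saturated chains, was the lowest of the 7 with 881, 938 and 843. Per kilobase ELOVL5 was 8.90 ± 0.43 times ELOVL7, and ELOVL1 was 4.05 ± 0.32 times ELOVL6 (SD, n = 3). With the union of all exons the mean of the second ratio was 2.63.

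FADS1 and FADS2, the front-end desaturases of polyunsaturated fatty acids, had means of 7352 and 2313 normalized counts. FADS1 had 7492, 7631.5 and 6933 in replicates 1 to 3, and FADS2 had 2149.8, 2470.2 and 2318. FADS2 was lowest in replicate 1 and FADS1 in replicate 3. Per kilobase FADS2 stood at 0.405, 0.457 and 0.472 of FADS1, so FADS1 was higher in each library. Their annotated spans on chromosome 11 overlap on opposite strands and FADS2 also overlaps FEN1, and the strand setting of the counting is not given in the sources used here, so reads from shared stretches cannot be told apart.

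The list also holds genes on the oxidation side. CPT1A, which carries fatty acids into mitochondria, had 3309, 3177 and 3281 normalized counts. AMACR, the racemase of branched-chain fatty acids known as a prostate cancer marker, had 208, 133 and 168, with a CV of 22.1%. AMACR was highest in replicate 1 and lowest in replicate 2. It is uncertain because a readthrough gene, C1QTNF3-AMACR, with a row of its own, holds 61.3% of its transcript at 100% identity. FASN was 7.07 ± 0.17 times CPT1A per kilobase (SD, n = 3). Of the 10 ratios between listed genes that were computed, 8 had the first-named gene higher in all 3 libraries, and the exceptions were FADS2 against FADS1 and SQLE against LSS. An exact permutation test of signs over 3 libraries cannot go below a two-sided p of 0.25, so no ratio was tested.

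Ordered per kilobase, the top of the list ran from FDFT1 (7850.4) over FDPS (5879), FASN (4396), SCD (3869), ACLY (3749), EBP (3516), CYP51A1 (3450.3) and ELOVL1 (3394) to ACAT2 (2645) and SREBF2 (2555). Of the 41 neighbouring pairs in the full order, 27 had ranges over the 3 libraries that did not overlap. The 14 that overlapped were SCD with ACLY, CYP51A1 with EBP and with ELOVL1, ACAT2 with SREBF2, MSMO1 with DHCR7, ELOVL5 with SCARB1, PMVK with TM7SF2, FADS1 with IDI1 and with INSIG1, SREBF1 with MVD, ACACA with SCAP and with ELOVL6, SQLE with FADS2, and NSDHL with ACSS2. The bottom 7 were ELOVL7 (229), NPC1 (169), ME1 (133), ACACB (103), INSIG2 (79.3), AMACR (41.3) and ABCA1 (1.05). The order depends on the transcript length used: with the union of all exons, FASN (3992) led, followed by SCD (3869) and FDFT1 (3145).

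Spread between the libraries was small for most of these genes. The CV was under 10% in 37 of the 42, and its median was 3.73%, against 5.56% over all genes tested. The listed genes have more reads than most genes, which narrows the CV. In genes of 3000 to 10000 reads, the 19 listed genes had a median CV of 3.64% and all genes of that depth 3.07%. The largest of the 3 normalized counts was over 1.2 times the smallest in 4 of 42 genes, ABCA1 (2.62 times), AMACR (1.56), ME1 (1.27) and ACACB (1.26), beside 29.2% of all genes tested. That background was not matched for depth and holds many genes with few reads.

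Each gene was tested for homogeneity of its 3 read counts by a chi-square test with Benjamini-Hochberg adjustment over 14646 genes, and 28 of the 42 listed genes differed between libraries beyond sampling noise. The background was 41.9% of all genes tested. The share rises with depth: 12 of 19 listed genes of 3000 to 10000 reads differed, beside 54.8% of all genes of that depth, and 7 of 9 with 10000 reads or more, beside 81.5%. At lower depth 5 of 8 listed genes of 1000 to 3000 reads differed (beside 41.4%), 3 of 5 of 100 to 1000 reads (beside 34.4%) and the 1 gene under 100 reads, ABCA1 (beside 33.1%). In genes of 3000 to 10000 reads the median chi-square per degree of freedom was 8.10 for the listed genes and 4.54 for all genes. The listed genes of 10000 reads or more had a median of 9.93, against 13.3. By role, 9 of the 11 genes from squalene to cholesterol, 5 of 6 in fatty acid synthesis and 5 of 7 in desaturation and elongation differed. So did 4 of 5 SREBP regulators, 2 of 7 in the mevalonate part, 2 of 4 in sterol handling and 1 of 2 on the oxidation side. No background at matched depth was computed by role, and no difference between roles was tested. ACACA, FASN and FADS1 had the largest chi-square per degree of freedom, at 35.1, 27.7 and 25.3.

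This test counts sampling noise alone. When the variance also held the trended dispersion of edgeR, none of the 42 genes differed, with Benjamini-Hochberg adjustment, and 3 had an unadjusted p under 0.05, namely ACACB (0.0350), MVD (0.0408) and NSDHL (0.0495). In that test 61 of all genes tested (0.416%) differed, and 802 had an unadjusted p under 0.05. The dispersion was estimated from these same libraries, so the test asks only whether a gene exceeds the usual spread at its depth. Few calls are the rule in it, and it cannot show that the listed genes do not vary. With each chi-square divided by 3.49, the mean per degree of freedom over genes with 10 to 50 reads, 3 listed genes differed, ACACA (adjusted p = 0.00259), FASN (adjusted p = 0.0155) and FADS1 (adjusted p = 0.0259), beside 3.47% of all genes tested. Leaving out replicate 1, 2 or 3 brought the number of listed genes called by the first test from 28 to 20, 17 and 20. Over all genes the number went from 6141 to 3950, 3332 and 3447.

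Replicate 1 was the highest library for 19 of the 42 genes (background 32.6% of genes tested), replicate 2 for 14 (33.5%) and replicate 3 for 9 (33.9%). Replicate 2 was the lowest library for 21 (background 35.5%), against 6 for replicate 1 (31.3%) and 15 for replicate 3 (33.3%). The sterol synthesis genes and the SREBP regulators made up much of this. Of the 18 sterol synthesis genes 12 were lowest in replicate 2, and all 5 SREBP regulators were highest in replicate 1, with 4 of them lowest in replicate 2. The median deviation of the 5 regulators from the mean of the 3 libraries was 0.06, -0.06 and 0.01 in log2(CPM + 0.5) for replicates 1, 2 and 3. The desaturases and elongases went another way, with 5 of 7 highest in replicate 2.

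None of the 42 genes differed once the edgeR dispersion was added, but that dispersion came from the same 3 libraries and cannot decide whether the genes vary. These deviations describe the libraries and are not calls. They moved with gene properties as well. Across 14613 genes the deviation of a library had a Spearman correlation with transcript length of -0.07, 0.25 and -0.19 in replicates 1 to 3, and with GC content of 0.17, -0.19 and 0.04; genes of 1 library share its depth and are not independent. With these trends removed, all 5 SREBP regulators were highest in replicate 1 and all 5 were lowest in replicate 2. The sterol synthesis genes lowest in replicate 2 went from 12 to 9. Of the 6 fatty acid synthesis genes, those lowest in replicate 2 went from 1 to 3, and those lowest in replicate 3 from 3 to 1. Whether length or GC content accounts for the order of the libraries was not tested. The 5 prostate markers also had 3 members highest in replicate 1 and 3 lowest in replicate 2. The summed fibroblast markers were 475, 429.8 and 488 normalized counts, lowest in replicate 2 as well, and their part in these values was not tested.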

How the data were processed

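RNA-seq was analysed from 3 libraries of WT 22Rv1 cells. The authors aligned the read pairs with HISAT2 on GRCh37 and a GENCODE annotation, took gene counts from HTSeq and scaled these with DESeq2. The deposited values are therefore a signal, namely normalized counts rounded to 1 decimal. The annotation release and the strand setting are not given in the sources used here. The labels name these tools without versions, and the study's supplement lists versions of HTSeq and DESeq2.

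Reads were recovered from the step that separates low values, and 100% of nonzero entries were whole within 0.06 normalized counts. Neighbouring rows that held reads and had the same values in all 3 libraries were merged (1976 of 29000 rows). This left 27024 counted genes and 38252744, 35675670 and 38629080 reads. Rows without any reads were not merged and stay among the counted genes. These recovered reads, scaled by TMM in edgeR 4.0.16 (R 4.3.3), entered a chi-square test of homogeneity for every gene averaging 10 reads or more (scipy 1.17.1). Calls were made at 0.05 after Benjamini-Hochberg adjustment. A second form added edgeR's trended dispersion, estimated from the same 3 libraries, with a common biological coefficient of variation of 5.58%. On simulated counts, the first form called 192 of 200 genes changed by 2-fold in 1 library and 10 of the others among 14632 genes tested. The second called 169 of 200 and 11 of the others among 14616. It was given the dispersion used to simulate, so the error of estimating a dispersion was not covered, nor were changes under 2-fold. Counts cover sampling error only where no dispersion was added. DESeq2 1.42.0 gave alternative size factors.

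Transcript lengths, positions, overlaps and GC content came from GENCODE annotation on GRCh37, with 1 canonical transcript per gene. Copies were transcripts of other genes with 50% or more of the length matched and 95% or more identity (minimap2 2.31). Promoter windows came from RefSeq on GRCh38.p14, a build other than that of the counts, and were matched by symbol. The members and the lists were chosen with earlier results of these data known. All 42 members are named, and of the other lipid lists the highest and the lowest gene per kilobase. Markers of prostate, fibroblast, blood and vessel cells served as a check. Alternatives were other library scalings, minimum counts, transcript lengths and windows, rows not merged and leaving out each replicate. With 1 group, no comparison of conditions and no set test was made. Figures were drawn with matplotlib 3.10.9.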

Additional observations from a re-analysis of the deposited data

How the results depend on the processing

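No paired analysis was possible because only 1 group was analysed. Over all genes, calls between WT libraries went from 6141 of 14646 under independent reads to 508 with the scaled chi-square and 61 with the edgeR dispersion, and lay between 3332 and 3950 when 1 replicate was left out. Of the 42 listed genes 28 differed under independent reads, 3 with the scaled chi-square and 0 with the edgeR dispersion (3 at an unadjusted p under 0.05), and between 17 and 20 when 1 replicate was left out. Without replicate 1 the count was 20, of which 15 were among the 28. Other library scalings, a minimum mean of 1 or 50 reads and rows not merged left 27 or 28 listed genes, all among the 28. With the length of the union of exons, 9 of 10 ratios moved by more than the spread between libraries. The other lengths rescale each ratio by a fixed factor, and no ratio changed which gene was higher. The cause of the spread between libraries was not tested. Depth limits ABCA1 most, with 9, 22 and 9 reads. With 1 group and 3 libraries, neither batch nor condition could be examined.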

Other observations

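Genes next to the listed ones in lipid metabolism were described from 6 lists, 53 genes in all, which are not part of the 42. Overlapping genes and near-identical copies were looked up for the 42 only. The levels of these 53 genes, the low ones included, carry no such check. Of them 47 were expressed, 32 stood above the median per kilobase of expressed genes (background 50%) and 8 in the top 10%. The chi-square test called 17 of 50 tested (background 41.9%), and none was called with the edgeR dispersion and Benjamini-Hochberg adjustment.

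Beta-oxidation stood high. All 10 of its genes were expressed and 4 were in the top 10% per kilobase. ACADVL, the dehydrogenase of very long chains, had 11373, 11262.7 and 11403.6 normalized counts and stood at 5195 per kilobase of its canonical transcript, while CPT1B, the muscle form of the carnitine transferase, was lowest at 49.3. The median CV of this list was 1.89%, the lowest of the 6 lists, and 2 of its 10 genes were called by the chi-square test. Its median level of 3700 normalized counts was also the highest of the 6 lists, the next being 1639. More reads narrow the CV, and the lists were not compared at matched depth.

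Among genes of acyl-CoA and ester formation, SLC25A1, the mitochondrial citrate carrier that feeds ACLY, was highest at 4030.1 per kilobase, with 6166, 6259 and 6290.3 normalized counts. THRSP, a known lipogenic gene of liver and fat, had 3, 1 and 0 reads. In the elongation list TECR, the reductase that ends each elongation cycle, stood at 2601 per kilobase, while SCD5, the second stearoyl-CoA desaturase, had 10, 8 and 2 reads. Sterol transport ran from NPC2, the soluble partner of NPC1, at 2334 per kilobase to the efflux pump ABCG1 at 5.99, with 23, 24 and 19 reads. ABCG1 and ABCA1 were thus both below 1 CPM. NR1H2 and NR1H3, which encode the LXR factors known to activate both pumps, were expressed at 1792 and 462 normalized counts. MYLIP, listed with these LXR genes, was expressed at a mean of 445. No relation between these levels was tested. NR1H2, NR1H3 and MYLIP were chosen for mention after their values were seen.

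The isoprenoid branches, which draw on farnesyl diphosphate, ran from GGPS1 (1032 per kilobase) to FNTB (20.2). The proteases and degradation factors of SREBP ran from MBTPS1 (741) to RNF139 (290). None of the lists was tested as a set.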
